A study of Mus musculus with 6 samples.

Results

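The CPEB family in the mouse consists of Cpeb1, Cpeb2, Cpeb3 and Cpeb4, and its members were taken here as the genes with exactly these symbols, which are 4 of the 55376 genes in the deposited tables. RNA was measured in freshly isolated satellite cells (fiSCs), the resident stem cells of skeletal muscle, from the hindlimbs of C57BL/6 mice aged 3 months. The cells were sorted as CD31-, CD45-, Sca1- and Vcam1+, and no genetic change or drug was applied to any group. Each group had 2 libraries. CPEB1 IP libraries held RNA precipitated with an antibody against CPEB1, IgG libraries held RNA precipitated with a control immunoglobulin, and Input libraries held RNA of the lysate before precipitation. Each precipitation started from 1000000 cells, so each library is a pool of many sorted cells, and p-values cover the spread between 2 libraries a group, which may be technical in part.

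CPEB proteins bind mRNAs through RNA recognition motifs and a zinc-binding region. CPEB1 recognises the cytoplasmic polyadenylation element (CPE), a U-rich motif in the 3′ UTR close to the polyadenylation signal. An unphosphorylated CPEB1 holds its mRNAs in a repressed state with a short poly(A) tail, and phosphorylation, classically by Aurora kinase A, allows a cytoplasmic poly(A) polymerase to lengthen the tail and translation to start. Cpeb2, Cpeb3 and Cpeb4 form a second branch of the family whose RNA-binding regions are very alike. Members of the family are known to be encoded by mRNAs that themselves contain CPEs, as described for Cpeb4 in meiosis.

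Matches to the CPE motif were searched in the annotated 3′ UTRs of the 4 mRNAs as the letters TTTTAT and TTTTAAT, on the sense strand only, since the motif is read in the mRNA. Overlapping matches were each counted, and the sequences come from the GENCODE M21 transcripts on mm10. The longest 3′ UTR of Cpeb1 had 1315 bases and held 4 matches, 2 of each motif. They began 738, 848, 992 and 1067 bases after the stop codon, and all 4 are shown because Cpeb1 is the member whose mRNA rose in the CPEB1 IP. Capitals mark the match, and the gene lies on the minus strand. The nearest AATAAA, the letters of the polyadenylation signal, lay 558, 448, 304 and 229 bases from these matches in the same order, so they are matches to the letters and not shown to be working CPEs.
Cpeb1, chr7:81347586-81347615: agagaaaaattaTTTTATttaaaactggac
Cpeb1, chr7:81347476-81347504: ttgatagaagtTTTTAATcacagtcacag
Cpeb1, chr7:81347332-81347361: cttccttacaacTTTTATttgacgaatgta
Cpeb1, chr7:81347257-81347285: ttgacttttctTTTTAATttaacgattac

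For the other members the TTTTAT match nearest to the end of the longest 3′ UTR is shown for comparison, at 153, 227 and 211 bases from that end and 80, 10 and 198 bases from the nearest AATAAA in Cpeb2, Cpeb3 and Cpeb4. Cpeb2 and Cpeb4 lie on the plus strand and Cpeb3 on the minus strand.
Cpeb2, chr5:43289554-43289583: taatttagtttaTTTTATtgttatcttcca
Cpeb3, chr19:37021506-37021535: ggaataaattaaTTTTATgatgctaattct
Cpeb4, chr11:31935406-31935435: gggtaattcattTTTTATtaaagtcatttt

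The number of motif matches, counted at any distance from a polyadenylation signal, differed between the members. Cpeb2 had 24 matches in a 3′ UTR of 3778 bases (6.35 per kilobase), Cpeb4 had 17 in 4102 bases (4.14 per kilobase), Cpeb1 had 4 in 1315 bases (3.04 per kilobase) and Cpeb3 had 6 in 3569 bases (1.68 per kilobase). Of genes whose longest 3′ UTR was within 20% of the same length, 65.9% held a match for the length of Cpeb1, 90.9% for Cpeb2, 90.2% for Cpeb3 and 92.2% for Cpeb4, so a match by itself is common at these lengths. The median number of matches in these length classes was 1 for Cpeb1 and 4 for each of the others. As many matches as in the member were found in 12.6% of the other genes of its class for Cpeb1, in 32.5% for Cpeb3, in 0.466% for Cpeb4 and in 0% of the other genes among the 1993 of the class of Cpeb2. Not every annotated transcript carried the motifs. A coding transcript of Cpeb1 with a 3′ UTR of 61 bases and a principal transcript of Cpeb4 with 45 bases had 0 matches, and counts per gene do not tell which transcript was present.

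**Figure D1:**
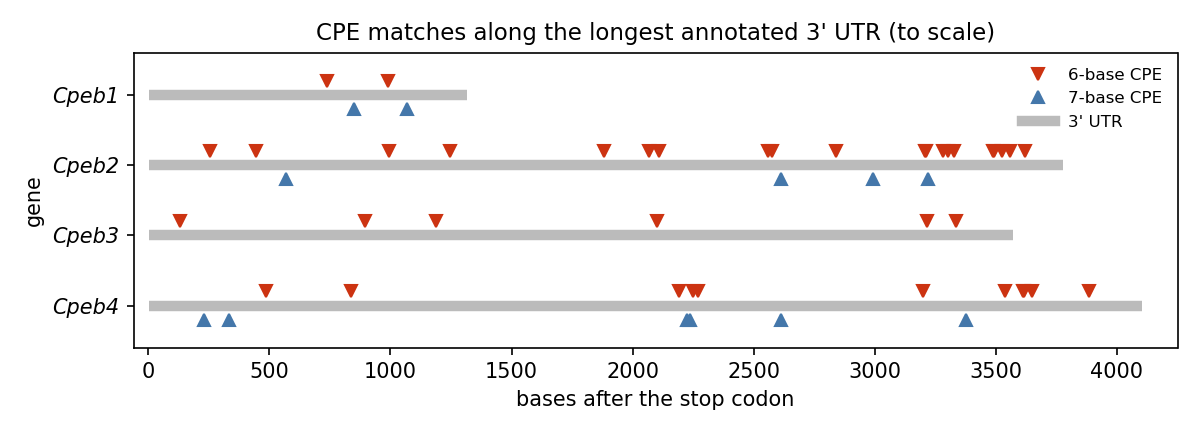
CPE matches along the longest annotated 3′ UTR of each member, with bases after the stop codon on the x axis, genes on the y axis, red triangles for the 6-base and blue triangles for the 7-base motif. Cpeb2 has 24 matches along its 3778 bases and Cpeb4 has 17, while Cpeb1 and Cpeb3 have 4 and 6.

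Depth differed between the groups. The counts assigned to genes were 3270067 and 3314547 in Input, 1284716 and 1359052 in IgG, and 2564323 and 4941653 in CPEB1 IP. These were 71.1% and 79.8% of the library totals behind the deposited FPKM in Input, 69.9% and 69.5% in CPEB1 IP, but 39.5% and 39.1% in IgG. FPKM (fragments per kilobase of exon, scaled to library size) of a typical gene in IgG is therefore low against the other groups, and fold changes below were fitted on counts scaled by TMM, which centres the bulk of the genes. With the library totals instead, the median log2 fold change of all tested genes was 0.84 for CPEB1 IP against IgG, compared with -0.01 after TMM. All 9 satellite cell markers, among them Pax7 and Myf5, exceeded a mean of 1 FPKM in each group. Several were lower in CPEB1 IP and IgG than in Input. Pax7 had 39.8 and 46.0 FPKM in Input, 6.41 and 5.45 in IgG, and 10.1 and 10.8 in CPEB1 IP. Cdh15 had 150 and 142, 9.94 and 8.93, and 25.0 and 29.9 in the same order. Sdc4 in CPEB1 IP (1832 and 1450) overlapped Input (1454 and 1757). Ptprc, which encodes CD45, did not exceed 0.471 FPKM in any library, but the leukocyte marker Cd68 had 4.34 to 12.4. The genes of the other sort markers that the cells should lack were detected, Pecam1 (CD31) at 1.24 to 4.65 FPKM and Ly6a (Sca1) at 4.40 to 15.9 FPKM, both highest in the CPEB1 IP libraries. Of the other fibro-adipogenic markers, Dpt had 157 and 200 FPKM and Col15a1 22.8 and 27.4 FPKM in Input, and Pdgfra had at most 0.316 FPKM in any library.

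Cpeb1 was the most abundant member in every library. This gene (ENSMUSG00000025586.17) encodes the founding member of the family and lies at chromosome 7, 81347026 to 81455465 on the minus strand, with 13 merged exon blocks of 4192 bases in all. Its deposited FPKM was 16.5 and 15.0 in Input, 8.74 and 8.99 in IgG, and 30.8 and 35.1 in CPEB1 IP. The 3 groups did not overlap on this scale, with CPEB1 IP highest and IgG lowest, but a typical gene is also low in IgG here. After TMM, the IgG values lay between those of the Input libraries. In FPKM the mean was 15.7 ± 1.05 in Input, 8.86 ± 0.176 in IgG and 32.9 ± 3.07 in CPEB1 IP (SD, n = 2 each). In Input, 2546 of the 23370 genes with a value above 0 had a higher mean FPKM than Cpeb1. In bulk RNA of this kind, the number of cells with a transcript and its amount per cell cannot be told apart.

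Cpeb4 was the next most abundant. It encodes a member that acts with CPEB1 in meiotic translation and has roles in stress and metabolism, and it lies at chromosome 11, 31872211 to 31935634 on the plus strand (ENSMUSG00000020300.14, 10 merged exon blocks, 6369 bases). Its FPKM was 3.28 and 6.16 in Input, 1.93 and 1.54 in IgG, and 2.05 and 2.39 in CPEB1 IP. The Input libraries were the highest and also the most unlike each other. Both CPEB1 IP libraries were above both IgG libraries on this scale, on which a typical gene is also low in IgG. The means were 2.22 ± 0.234 in CPEB1 IP and 1.73 ± 0.281 in IgG (SD, n = 2 each), and the nearest values, 2.05 and 1.93, were close.

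Cpeb2 and Cpeb3 were low throughout. Cpeb2 (ENSMUSG00000039782.14, chromosome 5, 43233170 to 43289724, plus strand, 15 merged exon blocks, 7816 bases) encodes a member described as a regulator of translation in neurons and other somatic cells. It had 22 and 26 counts in Input, 4 and 26 in IgG, and 25 and 36 in CPEB1 IP, equal to 0.612 and 0.801 FPKM in Input, 0.158 and 0.957 in IgG, and 0.872 and 0.648 in CPEB1 IP. The IgG libraries spanned the values of all others.

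Cpeb3 (ENSMUSG00000039652.16, chromosome 19, 37021291 to 37208601, minus strand, 16 merged exon blocks, 7414 bases) encodes a member known for its part in synaptic translation and memory. It had 7 and 18 counts in Input, 15 and 10 in IgG, and 12 and 17 in CPEB1 IP. Its FPKM was 0.205 and 0.585 in Input, 0.623 and 0.388 in IgG, and 0.441 and 0.323 in CPEB1 IP, so the 3 groups overlapped on this scale. The order Cpeb1, Cpeb4, Cpeb2, Cpeb3 held for the mean FPKM in each group, but Cpeb2 and Cpeb3 did not differ beyond their spread in IgG.

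**Figure D2:**
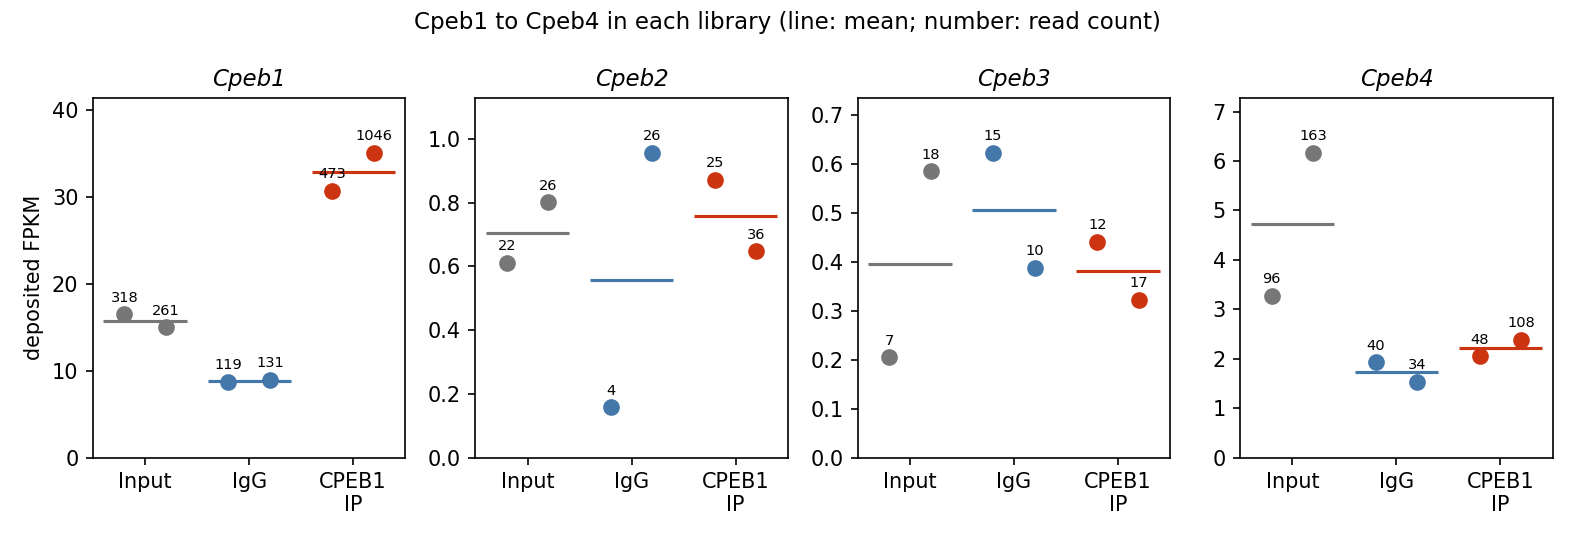
Deposited FPKM (y axis, a separate linear scale from 0 for each gene) of the 4 members in the 6 libraries, grouped on the x axis, with a line at the mean of each group and the read count beside each point. Cpeb1 lies at 30.8 and 35.1 in CPEB1 IP, above Input and IgG, while Cpeb2 and Cpeb3 rest on 4 to 36 counts a library.

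The makeup of the family within a library does not depend on library size. Cpeb1 made up 80.1% and 66.5% of the summed FPKM of the 4 genes in Input, 76.3% and 75.7% in IgG, and 90.1% and 91.3% in CPEB1 IP. Cpeb4 made up 15.9% and 27.3% in Input, 16.9% and 12.9% in IgG, and 6.02% and 6.20% in CPEB1 IP. The Cpeb1 share was thus highest, and the Cpeb4 share lowest, in the CPEB1 IP libraries, with no overlap with the other groups. The shares depend on each other, so a higher Cpeb1 share lowers that of Cpeb4. The FPKM of Cpeb4 itself was not lower in CPEB1 IP (2.05 and 2.39) than in IgG (1.93 and 1.54), where a typical gene is also low. It was lower in CPEB1 IP than in Input (3.28 and 6.16). After TMM, Cpeb4 was lower in CPEB1 IP than in IgG, but not called (log2 fold change -0.43). The Cpeb1 to Cpeb4 ratio of FPKM was 5.03 and 2.43 in Input, 4.52 and 5.85 in IgG, and 15.0 and 14.7 in CPEB1 IP. Its geometric mean in CPEB1 IP was 2.89-fold that of IgG and 4.24-fold that of Input (exact permutation test, 2-sided, p = 0.333 for each), and 0.333 is the smallest p that 2 libraries against 2 can give. The Cpeb1 to Cpeb3 ratio, which rests on few Cpeb3 counts, was 14.0 and 23.2 in IgG and 69.7 and 109 in CPEB1 IP. In Input it was 80.3 and 25.6 and overlapped CPEB1 IP. In all, 18 such ratio comparisons were made, and none could pass a threshold of 0.05.

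**Figure D3:**
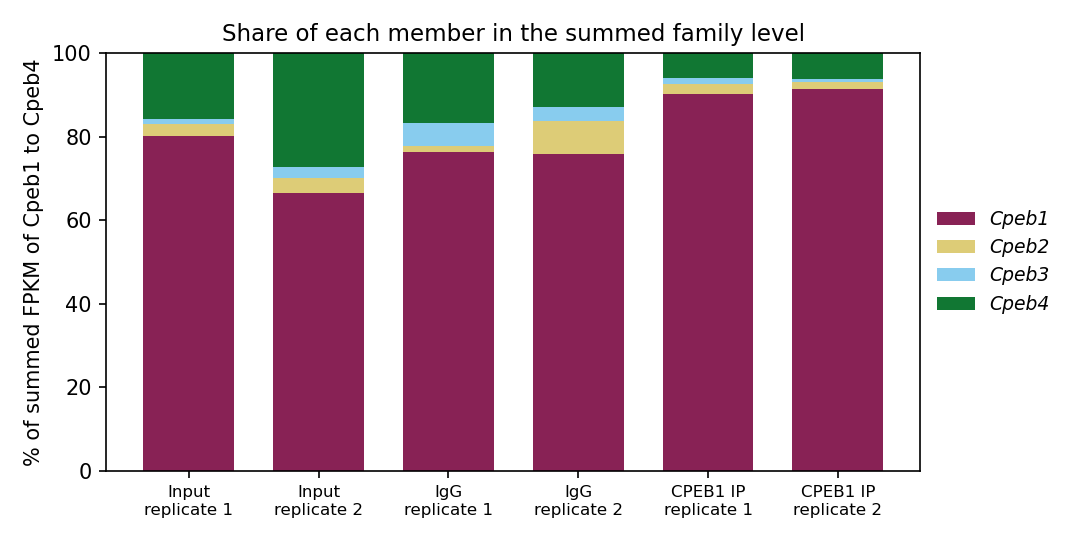
Percent of the summed FPKM of Cpeb1 to Cpeb4 (y axis) taken by each member in each of the 6 libraries (x axis), as stacked bars. Cpeb1 takes 90.1% and 91.3% in the CPEB1 IP libraries and between 66.5% and 80.1% in the others.

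The comparison of CPEB1 IP with IgG asks which RNAs came down with CPEB1 beyond what a control antibody retains, and Cpeb1 was the 1 member that rose. After TMM, Cpeb1 had 196 and 215 CPM (counts scaled to 1000000 per library) in CPEB1 IP and 93.9 and 99.3 in IgG. The log2 fold change was 1.09 (SE 0.12, quasi-likelihood F test in edgeR, adjusted p = 2.50e-06 by Benjamini and Hochberg's method over 12124 tested genes), a 2.13-fold difference with both CPEB1 IP libraries above both IgG libraries. It was larger than the spread between libraries, and 156 of the 12124 tested genes had a larger log2 fold change. Across the genome, an adjusted p under 0.05 was reached by 14.7% of tested genes upward and 18.7% downward in CPEB1 IP, as counts 1779 and 2265, with the library totals in place of TMM the counts were 7212 and 521, and with DESeq2 they were 2635 and 998. The call for Cpeb1 held in all 11 alternatives, with log2 fold changes of 1.04 to 1.899 and adjusted p-values of 5.65e-17 to 1.13e-04. With the library totals behind the FPKM, the median gene was itself higher in CPEB1 IP than in IgG, by a log2 fold change of 0.84. Against that background, the FPKM of several marker lists were also higher in CPEB1 IP than in IgG. The summed FPKM of the 9 satellite cell markers was 1925 to 2342 against 1097 to 1117, that of 4 myofiber markers 43.9 to 56.9 against 21.7 to 24.9, that of 4 endothelial markers 18.7 to 19.8 against 8.41 to 10.2, and that of 3 Schwann cell markers 19.9 to 25.9 against 9.65 to 12.6. That of 4 fibro-adipogenic markers was 129 to 146 against 54.4 to 57.6, and that of 4 leukocyte markers 4.49 to 8.02 against 8.32 to 8.61. Sdc4 made up most of the satellite cell sum (1450 to 1832 in CPEB1 IP), and Cd68 most of the leukocyte sum (4.34 to 7.61 in CPEB1 IP). The part of these markers in the Cpeb1 result was not tested.

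The remaining members did not rise in CPEB1 IP against IgG after TMM. Cpeb4 had 19.9 and 22.2 CPM in CPEB1 IP and 31.6 and 25.8 in IgG, and its log2 fold change of -0.43 (SE 0.27) had an adjusted p of 0.230 in edgeR's test. The IgG libraries were both the higher ones for Cpeb4, but with the library totals the value was 0.38, so its direction depended on the scaling. Cpeb2 had 10.3 and 7.38 CPM in CPEB1 IP and 3.16 and 19.7 in IgG, a log2 fold change of -0.42 (SE 0.52, adjusted p = 0.575, edgeR). Here 1 library decided the direction, since leaving out IgG replicate 2 gave 1.47 (adjusted p = 0.147, edgeR) and leaving out IgG replicate 1 gave -1.15 (adjusted p = 0.04998, edgeR, just past the threshold).

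Cpeb3 had 4.97 and 3.49 CPM in CPEB1 IP and 11.8 and 7.58 in IgG. Its log2 fold change was -1.24 (SE 0.47) with an adjusted p of 0.0466 in edgeR's test, just under the threshold. The filter on low counts kept Cpeb3 here only through IgG, the group in which it was higher, since the minimum was 5.10 CPM before TMM and the CPEB1 IP libraries had 4.68 and 3.44. This call rested on 10 to 17 counts a library. Of 11 alternatives, among them a sum with overlapping genes that was mostly counts of another gene, it was kept in 1, RLE size factors (adjusted p = 0.0480, edgeR). It was lost without any 1 of the 4 libraries (-1.49 to -0.84), and with a replicate block in the model the value was -1.18 with an adjusted p of 0.0722 in edgeR's test. DESeq2 gave -0.94 with an adjusted p of 0.349.

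**Figure D4:**
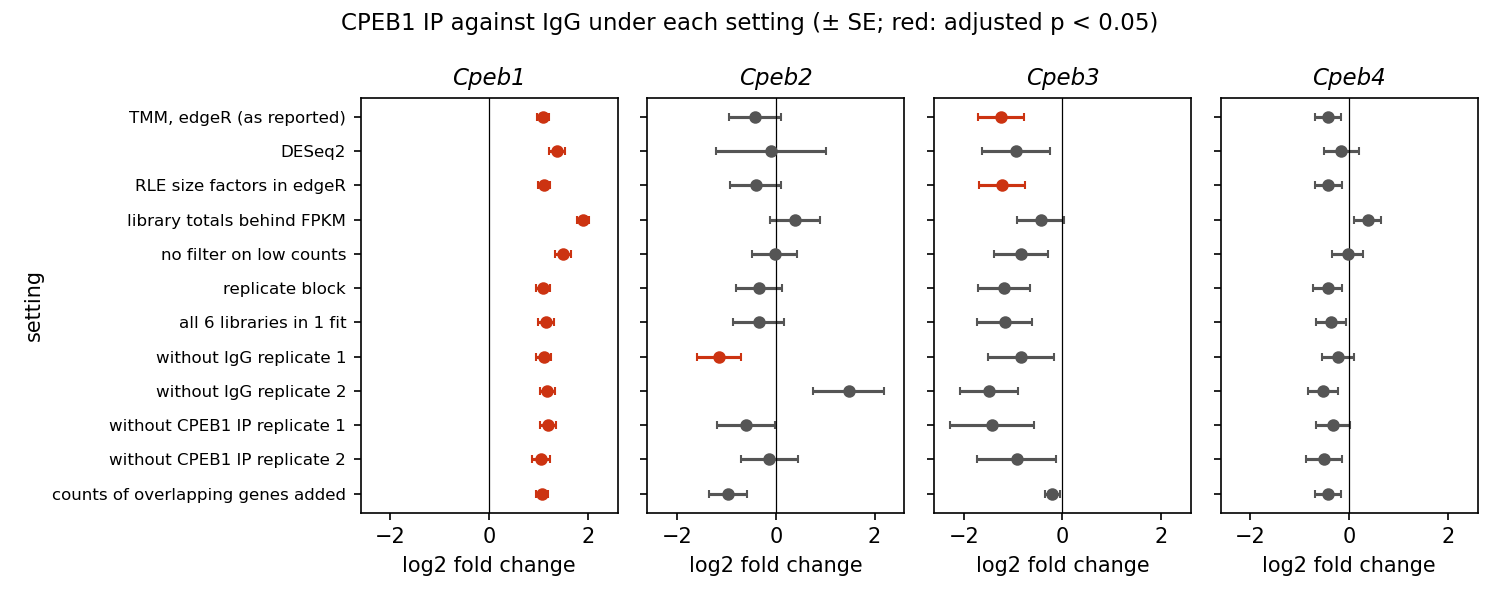
Log2 fold change of each member in CPEB1 IP against IgG (x axis, ± SE) under the reported setting and 11 alternatives (y axis), in red where the adjusted p was under 0.05. Cpeb1 stays between 1.04 and 1.899 under every setting, Cpeb3 is red under the reported setting and RLE size factors, and Cpeb2 lies on both sides of 0, in red without IgG replicate 1.

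The study called enrichment by a minimum ratio of FPKM between CPEB1 IP and IgG in each experiment, together with an adjusted p from DESeq2 on counts. Only the ratio is given here. It was formed between libraries with the same replicate number after adding 1 to each FPKM, a step the paper does not mention. Cpeb1 had ratios of 3.26 and 3.61. The ratios were 1.62 and 0.842 for Cpeb2, 0.888 and 0.953 for Cpeb3, and 1.04 and 1.34 for Cpeb4. Over all genes above 1 FPKM the median log2 ratio was 0.60 and 0.64, compared with 1.71 and 1.85 for Cpeb1, so on this scale too Cpeb1 exceeded the typical gene.

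The comparison of CPEB1 IP with Input sets the precipitate against the RNA that the cells contained. Cpeb1 was again higher, with 195 and 216 CPM in CPEB1 IP and 95.0 and 77.8 in Input. The log2 fold change was 1.25 (SE 0.15, adjusted p = 6.25e-05, edgeR), a 2.38-fold difference, where 17% of the 12171 tested genes were higher and 15.8% lower. All 10 alternatives kept this call, between 1.07 and 1.37. These values share the CPEB1 IP libraries with the comparison above and are not independent of it. In summed FPKM, 4 myofiber markers had 24.1 to 25.8 in Input and 43.9 to 56.9 in CPEB1 IP. The sums of 3 Schwann cell markers were 9.85 to 12.8 and 19.9 to 25.9, and of 4 endothelial markers 14.7 to 16.9 and 18.7 to 19.8. Fibro-adipogenic markers were lower in CPEB1 IP (129 to 146) than in Input (185 to 232). The satellite cell and leukocyte sums overlapped. The part of these markers in the Cpeb1 result was not tested. The log2 fold changes of Cpeb2 and Cpeb3 were 0.27 (SE 0.37) and 0.13 (SE 0.53), with adjusted p-values of 0.614 and 0.875 in edgeR's test.

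Cpeb4 fell in CPEB1 IP relative to Input. After TMM it was also lower in IgG than in Input, but not called (-0.55, SE 0.29, adjusted p = 0.131, edgeR). It had 19.8 and 22.3 CPM in CPEB1 IP and 28.7 and 48.6 in Input, a log2 fold change of -0.86 (SE 0.26, adjusted p = 0.0215, edgeR). Both CPEB1 IP libraries were below both Input libraries, and the direction was the same in all 10 alternatives, 7 of which kept the call. The size leaned on Input replicate 2, the library with 48.6 CPM. Without it the value was -0.42 with an adjusted p of 0.190 in edgeR's test, while without CPEB1 IP replicate 1 it was -0.79 with an adjusted p of 0.0819 in edgeR's test, and with DESeq2 -0.91 with an adjusted p of 0.0577.

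The comparison of IgG with Input gives the background of the control antibody. No member passed the threshold, where 21.4% of the 12980 tested genes were higher in IgG and 19.4% were lower by edgeR's test. Cpeb1 had 92.2 and 97.4 CPM in IgG and 101 and 82.6 in Input, and its log2 fold change was 0.04 (SE 0.19, adjusted p = 0.875, edgeR). The IgG values lay between those of the Input libraries. The unadjusted p of Cpeb3 was 0.0310, the 1 member under 0.05 before adjustment, and its log2 fold change was 1.25 (SE 0.56) with an adjusted p of 0.0703. It had 11.6 and 7.44 CPM in IgG against 2.23 and 5.70 in Input, and it passed the filter, a minimum of 4.32 CPM in 2 libraries, through IgG, since 1 Input library was below it. DESeq2 also called 0 members here, with adjusted p-values of 0.348 to 0.873. With the library totals, which let the low share of IgG counts on genes enter, Cpeb1 was -0.83 (adjusted p = 0.00114, edgeR) and Cpeb4 was -1.44 (adjusted p = 2.66e-04, edgeR), with the median of all genes at -0.93. Cpeb1 was therefore close to the typical gene on either scale in this comparison.

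**Figure D5:**
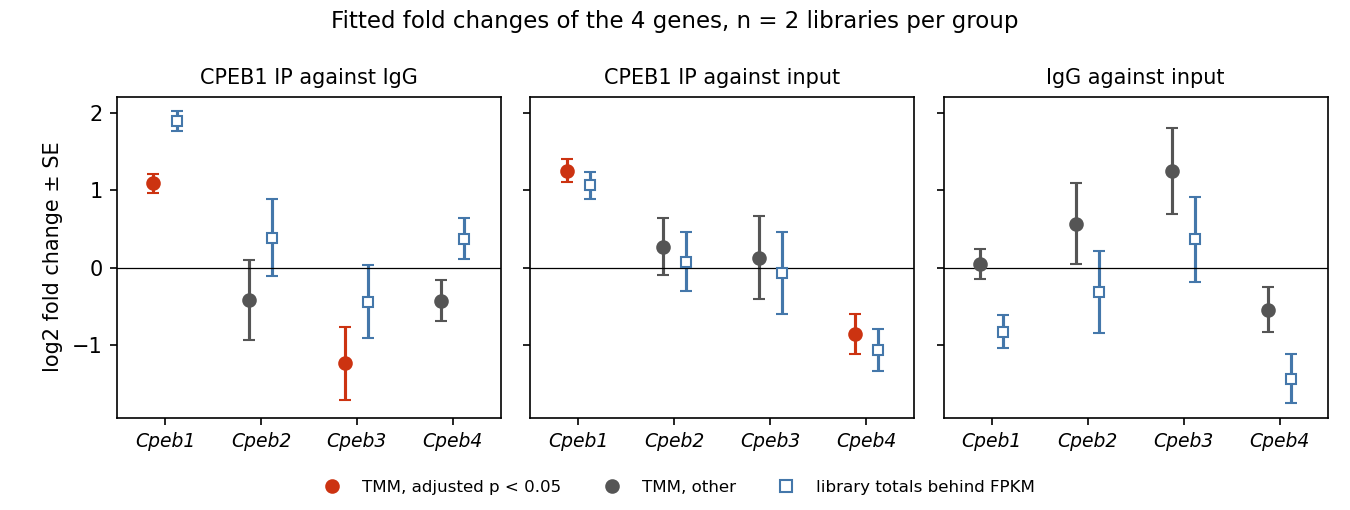
Fitted log2 fold changes (y axis, ± SE, 2 libraries per group) of the 4 members (x axis) in the 3 comparisons, as filled circles after TMM (red where the adjusted p was under 0.05) and as open squares with the library totals. Cpeb1 is above 1 in both comparisons of CPEB1 IP on either scale, and Cpeb4 in CPEB1 IP against IgG is -0.43 after TMM and 0.38 with library totals.

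Other annotated genes lie within the spans of 3 members. SMART-Seq2 libraries do not mark strand, so reads from a member and from an antisense gene cannot be told apart where exons overlap. Within Cpeb1 lies the pseudogene Rpl7a-ps9, which shared 0 exon bases with it and had at most 3 counts a library. Cpeb2 shared 137 exon bases with the antisense gene Gm7854, which had at most 5 counts. It also contains 6030400A10Rik and Gm42551, with 0 shared exon bases and at most 8 and 4 counts. Cpeb3 shared 116 exon bases with the antisense gene A330032B11Rik, which had at most 4 counts. Its span also holds Gm22714, annotated as a ribozyme of 78 bases at chromosome 19, 37149085 to 37149162, on the strand of Cpeb3. A self-cleaving ribozyme in an intron of this gene is known in mammals. It had 1 count in Input replicate 1, 2 in IgG replicate 2 and 0 in the other libraries, too few to compare, as was the 1 count of the rRNA-type gene Gm23918. March5, a mitochondrial ubiquitin ligase gene on the opposite strand, overlaps the start of Cpeb3 with 0 shared exon bases. It had 130 and 155 counts in Input, 113 and 86 in IgG, and 172 and 350 in CPEB1 IP, far more than Cpeb3 itself. Adding these neighbours' counts to Cpeb3 gave a log2 fold change of -0.20 in CPEB1 IP against IgG (adjusted p = 0.340, edgeR). That sum was mostly March5 counts, from exons not shared with Cpeb3, so its value says little of Cpeb3 itself. Cpeb4 had no overlapping gene in the table.

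The genes whose pattern over the 6 libraries was most like that of a member were found by the root mean square difference of centred log2 CPM among 6949 genes with a mean of at least 20 CPM. For Cpeb1 they were Ninj1, which encodes a membrane protein of nerve injury and cell rupture, the pseudogene Oaz1-ps and Cmtm7, at differences of 0.0987, 0.0991 and 0.102. Ninj1 had 40.2 and 39.4 CPM in Input, 41.0 and 39.3 in IgG, and 77.5 and 89.2 in CPEB1 IP. Its step at CPEB1 IP and its closeness of Input and IgG, shared with Cpeb1, follow from how it was picked. Counts of Oaz1-ps are uncertain because a pseudogene shares sequence with its parent gene. For Cpeb4 the nearest were Tmem87b, Fam49a and Ube4a at 0.140 to 0.158, and for Cpeb3 they were Rnf217, Taf4 and Ercc6l2 at 0.187 to 0.277. Tmem87b had 80.1 and 102 CPM in Input, 63.8 and 56.8 in IgG and 48.7 and 51.2 in CPEB1 IP. The nearest genes to Cpeb2, 1700021F05Rik, Cachd1 and Fam102b, were more distant at 0.422 to 0.438.

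Lists of genes that work with CPEB proteins were read beside the family in CPEB1 IP against IgG, by edgeR's test and against the background of 14.7% higher and 18.7% lower. Of 17 tested genes of the CPE complex and of polyadenylation, 4 rose and 1 fell, with a median log2 fold change of 0.16 where that of all genes was -0.01. Those that rose were Cpsf2, a subunit of the cleavage and polyadenylation complex (1.02, SE 0.20), Ngdn, which encodes the CPEB- and eIF4E-binding protein neuroguidin (0.58, SE 0.15), the cap-binding factor gene Eif4e (0.44, SE 0.10) and the poly(A)-binding protein gene Pabpc1 (0.36, SE 0.09). Lsm14b, a gene of repressed mRNP particles, fell by 1.41 (SE 0.52, adjusted p = 0.0423, edgeR), just under the threshold. Tent2, the cytoplasmic poly(A) polymerase also called GLD2, had 0.37 (SE 0.17, adjusted p = 0.0963, edgeR), and Parn, the opposing deadenylase, had -0.58 (SE 0.36, adjusted p = 0.230, edgeR).

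Of 13 tested genes of deadenylation, 2 rose (Btg2 at 0.36 and Cnot8, a catalytic subunit of the CCR4-NOT deadenylase, at 0.66) and 1 fell (Pan3 at -0.47), with a median of 0.01. Of 12 tested genes for kinases, phosphatases and turnover of CPEB, 4 rose and 2 fell, with a median of 0.18. Among those that rose were the protein phosphatase 1 genes Ppp1ca (0.51) and Ppp1cb (0.38) and the F-box gene Fbxw11 (0.37). The calcium-dependent kinase genes Camk2a (-2.32) and Camk2d (-0.57) fell. Camk2a passed the filter on low counts through IgG, the group in which it was higher, and was not tested in CPEB1 IP against Input. Aurka, the gene of the kinase that activates CPEB1, did not pass that filter in CPEB1 IP against IgG. Of 10 tested genes for proteins that act with CPEB on 3′ UTRs, 4 rose and 1 fell, with a median of 0.18. Among those that rose were Zfp36 (0.56), Zfp36l1 (0.52) and Elavl1 (0.41), genes of proteins that bind AU-rich elements, and Msi2 (-0.96) fell. Of 10 tested genes known elsewhere as CPEB targets, Trp53 (0.98) and Plat (0.71) rose, with a median of 0.23. Ccnb2 (-1.88) fell, as did the same Camk2a, kept through IgG. With the library totals Pan3 (0.34) and Camk2d (0.24) were positive, and Lsm14b (-0.60), Msi2 (-0.15) and Ccnb2 (-1.08) were negative, while Camk2a did not pass the filter there.

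In CPEB1 IP against Input, Cpeb1 at 1.25 stood beside 5 genes higher and 3 lower of 17 in the CPE complex list, 2 and 4 of 13 in the deadenylation list, 4 and 1 of 12 in the list of kinases, phosphatases and turnover, 3 and 1 of 10 for 3′ UTR-binding proteins and 2 and 1 of 10 for known targets. The background was 17% higher and 15.8% lower, and several of these shares lie near it. Tent2 rose there (0.74, SE 0.18, adjusted p = 0.00648, edgeR) and Parn fell by 1.97 (SE 0.23, adjusted p = 5.24e-05, edgeR). Zfp36 and Btg2, which were higher in CPEB1 IP than in IgG, were lower in CPEB1 IP than in Input, at -1.04 and -1.27 (adjusted p = 8.01e-05 and 1.59e-05, edgeR). In IgG against Input, where Cpeb1 was at 0.04, the same lists had 0 and 5, 1 and 4, 1 and 2, 2 and 3, and 2 and 4 genes higher and lower, against a background of 21.4% and 19.4%. Zfp36 and Btg2 were lower in IgG than in Input, at -1.72 and -1.74. Parn was also lower in IgG than in Input, at -1.51 (SE 0.30, adjusted p = 8.02e-05, edgeR).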

How the data were processed

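RIP-seq of fiSCs gave 6 libraries (2 each of CPEB1 IP, IgG and Input), made by SMART-Seq2 and sequenced as paired reads of 75 bases. The authors mapped reads to mm10 with HISAT and deposited featureCounts counts per gene and FPKM values calculated from them, and the submitters' notes also list StringTie. The strand setting, the treatment of multi-mapping reads and the annotation release are not given in the sources used here. Counts were tested with edgeR 4.0.16 in R 4.3.3 (TMM, filterByExpr, quasi-likelihood test, Benjamini-Hochberg adjustment over all tested genes), for each pair of groups, after tests on simulated data. SE was the log2 fold change over the square root of F. All 4 members passed the filter in each comparison. Ratios between members were compared by exact permutation tests. Alternatives included DESeq2 1.42.0, RLE, library totals, no filter, a replicate block, 1 fit of all libraries, leaving out each library, and, for FPKM ratios, pseudocounts of 0.1 and 5 instead of 1. The genes named are the members, the genes overlapping their spans, the 3 genes nearest to each in pattern, and genes of the 5 lists that had an adjusted p under 0.05 in CPEB1 IP against IgG or a stated role, and some of these are not reported here. Members and lists were chosen with earlier results of these data known.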

Additional observations from a re-analysis of the deposited data

How the results depend on the processing

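Of the 4 members, the calls for Cpeb1 in both comparisons of CPEB1 IP kept their direction and side of the threshold under every alternative run. With DESeq2, Cpeb3 in CPEB1 IP against IgG was -0.94 and Cpeb4 against Input was -0.91, both no longer called, and Cpeb1 in IgG against Input turned to -0.0932. DESeq2 called 2635 genes higher and 998 lower against IgG, 1227 higher and 1189 lower against Input, and 1134 higher and 1594 lower in IgG against Input. With the library totals, Cpeb2 (0.39) and Cpeb4 (0.38) turned positive and Cpeb3 (-0.44) lost its call against IgG, with 7212 genes higher and 521 lower. Against Input, Cpeb3 turned to -0.0700 and 1222 genes were higher. In IgG against Input, Cpeb1 turned to -0.83 and Cpeb2 to -0.32, Cpeb4 at -1.44 passed the threshold, and 551 genes were higher and 7172 lower. Without a filter, Cpeb3 against IgG was -0.84 and not called, 3513 genes were higher and 2336 lower, and Cpeb1 in IgG against Input was -0.22. In the fit with a replicate block, Cpeb3 against IgG was -1.18 and not called, and no other call of a member changed. The deviations of libraries with the same number correlated with r of -0.0242, -0.00105 and 0.0291 over 14287 genes, so the data gave no sign that the numbers pair the libraries, and the labels do not say so. In 1 fit of all libraries Cpeb3 was -1.17, and with the overlapping genes' counts added -0.20, both not called. The latter sum was mostly March5 counts and says little of Cpeb3 itself. Leaving out 1 library at a time gave, against IgG, -1.15 (past the threshold without IgG replicate 1) to 1.47 for Cpeb2, -1.49 to -0.84 for Cpeb3, and 1054 to 1783 genes higher and 677 to 1750 lower. Against Input it gave -0.44 to 0.96 for Cpeb3, -1.23 to -0.42 for Cpeb4, and 957 to 2646 genes higher and 1064 to 2347 lower. In IgG against Input it gave -0.0932 to 0.20 for Cpeb1, -1.30 to 1.32 for Cpeb2 (1.32 past the threshold without IgG replicate 1), 0.73 to 2.06 for Cpeb3, -0.87 to -0.12 for Cpeb4 (-0.87 past the threshold without Input replicate 1), and 1354 to 2170 genes higher. A group left with 1 library was assumed to vary like the other. The cause of these changes was not tested, beyond the fewer libraries, genes or reads that the settings themselves impose. Counts of 4 to 36 a library limit what can be said of Cpeb2 and Cpeb3.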
